A study of Mus musculus with 18 samples.

Results

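ETn and MusD elements are mouse long terminal repeat (LTR) retrotransposons of the ERVK class. They were taken here as the rows of the deposited repeat tables whose names begin with MMETn, ETnERV or RLTRETN, which gave 5 of 906 repeat subfamilies and 5 of the 150 subfamilies annotated as ERVK. The 5 were MMETn-int, ETnERV-int, ETnERV2-int, ETnERV3-int and RLTRETN_Mm. The first 4 are internal (proviral body) sequences, and RLTRETN_Mm is an LTR. The deposited annotation does not say which of the 4 bodies it flanks.

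RNA-seq had been made from E14Tg2a mouse embryonic stem cells, a male line, that either lacked functional Daxx (Daxx-null) or were the wild-type parents. Each genotype was grown in 3 cultures with 3 libraries each, 18 in all. The 2i culture was serum-free and held inhibitors of GSK3 and MEK, LIF and vitamin C at 100 µg/mL. The retinoic acid culture withdrew LIF from serum-grown cells for 24 h and then gave 10 µM retinoic acid for 4 days without LIF, a neural differentiation. The serum culture held fetal bovine serum and LIF at 1000 units/mL. The labels give 1 Daxx-null line, without the number of clones behind it or the part of the gene that was removed. The design text calls the 3 replicates independent without saying what was repeated.

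ETn (early transposon) elements carry no working retroviral genes of their own and are known for abundant transcription in early mouse embryos and embryonic stem cells. MusD elements are their coding-competent relatives, share LTR sequence with them and supply the proteins that let ETn RNA move, and both are known as a cause of insertional mutations in laboratory mice. In stem cells such elements are held down by H3K9 methylation set by Setdb1 with its co-repressor Trim28, by DNA methylation, and by the deposition of histone H3.3, for which Daxx, with its partner Atrx, is a chaperone.

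In the annotation used by the authors, MMETn-int had 1965 copies of mean length 1206.2 bases at a mean divergence of 13.7% from its consensus. ETnERV-int had 404 copies of 1108.7 bases at 18.2%, and ETnERV2-int had 5884 copies of 740.4 bases at 18%. ETnERV3-int had 945 copies of 910.7 bases at 15.6%. RLTRETN_Mm had 2864 copies of 312.2 bases at 11.5%, the least diverged of the 5, against a median of 17.35% over the 150 ERVK subfamilies. A value summarises all copies of a subfamily, so it does not say which copies were transcribed, and reads that fit several related subfamilies could have been shared among them.

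The deposited values, called FPKM, are per copy and per kilobase and are scaled within each library to its repeat reads, so that they are shares of the repeat signal and not absolute amounts. The steps between low values recover the reads behind them up to a common scale. Repeat reads came to between 6.97% and 18.9% of gene reads, lowest after retinoic acid. With that scale inferred to be 10 M reads, depth was 8.04 to 18.96 M repeat units and 84.2 to 141.7 M gene units, and the thinnest member value, that of ETnERV3-int in a Daxx-null serum library, stood for 1335 units. In bulk RNA, fewer cells that transcribe an element and less RNA per cell cannot be told apart.

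Daxx, the deleted gene, had 54.4, 56.0 and 57.6 FPKM in Daxx-null 2i libraries against 434, 423 and 402 FPKM in wild-type 2i libraries. In retinoic acid it had 62.7, 61.7 and 60.8 FPKM in Daxx-null against 238, 242 and 265 FPKM in wild-type libraries, and in serum 68.7, 72.2 and 73.7 FPKM against 307, 319 and 353 FPKM, so every library followed its genotype label. The 6 pluripotency markers Pou5f1, Sox2, Nanog, Zfp42, Esrrb and Tdgf1 summed to 7981 to 26167 FPKM in 2i and serum libraries and to 530 to 900 FPKM in retinoic acid libraries. A pair of 2i libraries stood apart from the others of their groups, Daxx-null replicate 2 (lower pluripotency and higher neural markers) and wild-type replicate 3, whose Trim28 level was 2315 FPKM beside 3613 and 3760 FPKM in the other wild-type 2i libraries. The 4 Y-linked genes Eif2s3y, Uty, Ddx3y and Kdm5d summed to only 1.28 to 2.74 FPKM in the Daxx-null retinoic acid and serum libraries, against 183 to 245 FPKM in Daxx-null 2i libraries and 156 to 359 FPKM in all wild-type libraries. Medium and Y-linked RNA content therefore changed together between Daxx-null 2i cells and the other Daxx-null cells, and cannot be told apart in any comparison across them. Within serum and within retinoic acid the near absence of Y-linked RNA goes with the Daxx-null genotype, so that these cannot be told apart in the genotype comparisons of those cultures either; in 2i the Y-linked sums were 183 to 245 FPKM in Daxx-null against 320 to 359 FPKM in wild-type libraries.

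The 5 subfamilies together made up from 2.70% to 20.8% of all repeat signal, and that part differed by culture and, in 2i and serum, by genotype. The 5 held 4.56%, 4.73% and 4.85% of the summed signal in Daxx-null 2i libraries against 13.4%, 13.8% and 11.8% in wild-type 2i libraries. They held 2.95%, 3.04% and 2.70% in Daxx-null retinoic acid libraries against 3.32%, 3.22% and 2.92% in wild-type ones. In serum they held 19.1%, 20.5% and 20.8% in Daxx-null against 17.1%, 17.7% and 16.0% in wild-type libraries. The genotypes did not overlap in 2i or serum and overlapped after retinoic acid. MMETn-int alone ran from 1.96% to 17.4% of the summed signal. In mean repeat FPKM it ranked 6 of 906 subfamilies in Daxx-null serum cells and 8 in wild-type serum cells.

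**Figure D1:**
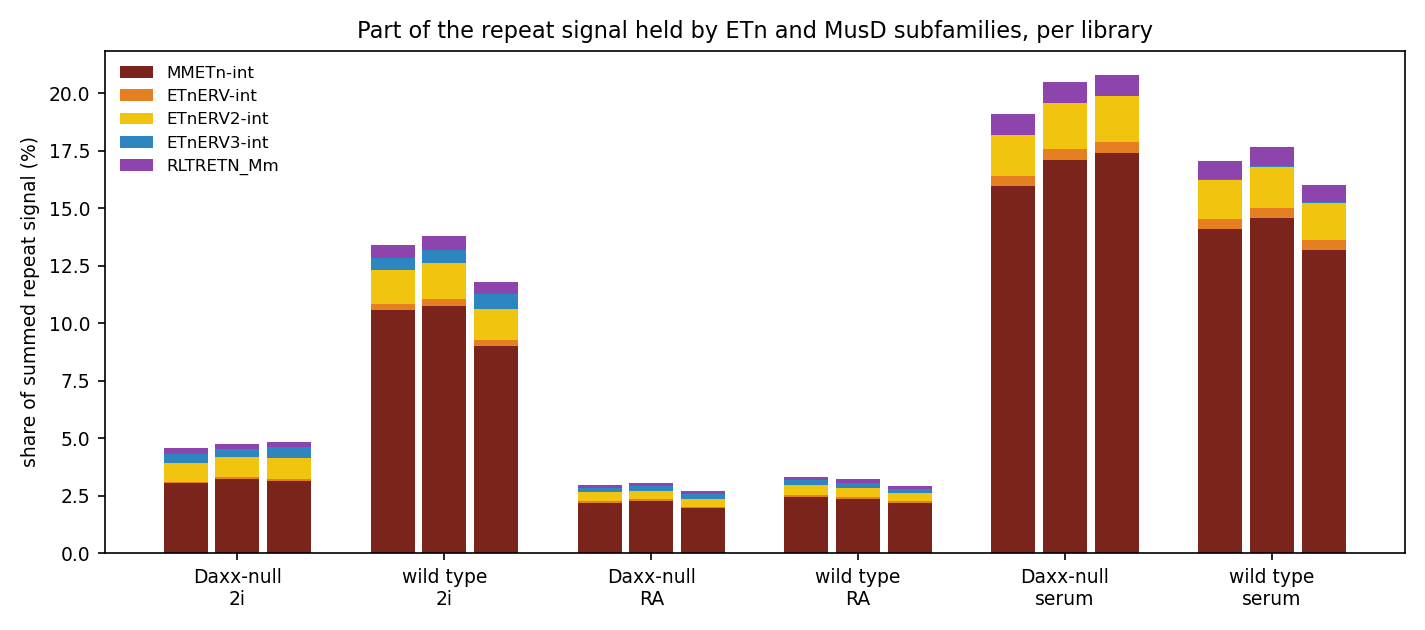
Share of the summed repeat signal (%) held by the 5 ETn and MusD subfamilies, 1 stacked bar per library, in Daxx-null and wild-type cells of each culture. Daxx-null 2i bars reach 4.56% to 4.85% and wild-type 2i bars 11.8% to 13.8%, and MMETn-int makes up most of each bar.

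In 2i, 4 of the 5 subfamilies were lower in Daxx-null cells (limma on log2(FPKM + 0.5256), Benjamini-Hochberg adjusted p under 0.05 over 864 subfamilies tested, all 5 members among them). Of all 864 subfamilies 5.44% were called lower and 17.8% higher in that comparison; of the calls 76.6% were higher as deposited, 89.9% scaled to gene reads, 31.1% under quantile normalization and 45.4% under median-ratio scaling. The median log2 difference was -1.35 over the 5 members and 0.13 over all tested. MMETn-int, the body of ETn elements, had 121, 127 and 125 FPKM in Daxx-null libraries against 417, 425 and 349 FPKM in wild-type libraries. The groups were far apart, and the 3 Daxx-null libraries lay close together, Daxx-null replicate 2 included. The wild-type mean was 3.20 times the Daxx-null mean, a log2 difference of -1.67 (SE 0.0900, adjusted p = 2.89e-08), and no other tested subfamily had a more negative difference as deposited, while 2 did when scaled to gene reads.

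ETnERV-int had 16.8, 23.4 and 24.8 FPKM in Daxx-null 2i libraries against 62.4, 63.8 and 55.8 FPKM in wild-type 2i libraries. The log2 difference was -1.48 (SE 0.129, adjusted p = 2.13e-06), with Daxx-null replicate 1 the lowest of the 6. RLTRETN_Mm, the LTR among the members, fell likewise. It had 26.6, 20.9 and 22.7 FPKM in Daxx-null libraries against 62.0, 64.3 and 54.2 FPKM in wild-type libraries, a log2 difference of -1.35 (SE 0.0915, adjusted p = 2.09e-07). ETnERV2-int, the subfamily with the most copies, had 17.6, 18.1 and 19.4 FPKM against 31.8, 33.7 and 28.1 FPKM in wild-type libraries. Its groups were also separate, but its log2 difference of -0.74 (SE 0.0780, adjusted p = 1.37e-05) was the smallest of the 4 called.

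ETnERV3-int did not pass the test in 2i. It had 42.4, 38.3 and 54.9 FPKM in Daxx-null libraries against 53.5, 57.7 and 72.9 FPKM in wild-type libraries, groups that overlapped, with a log2 difference of -0.44 (SE 0.173, adjusted p = 0.0783). Without the 2 libraries that stood apart, the 4 called differences were -1.77, -1.60, -0.81 and -1.34 for MMETn-int, ETnERV-int, ETnERV2-int and RLTRETN_Mm, and ETnERV3-int had -0.20 (adjusted p = 0.528). Over all alternatives the adjusted p of ETnERV3-int ran from 0.0282 to 0.528. Scaled to gene reads instead of repeat reads, MMETn-int had -1.52 (adjusted p = 3.54e-05), and the other 3 remained called, at -1.34 for ETnERV-int, -0.61 for ETnERV2-int and -1.21 for RLTRETN_Mm.

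Cell-type markers also differed in 2i, where 31.5% of 18002 genes tested were called higher and 15.3% lower in Daxx-null cells. The pluripotency markers summed to 15796, 7981 and 13411 FPKM in Daxx-null against 19561, 19825 and 21206 FPKM in wild-type libraries, with 5 of 6 lower and 0 higher. The 6 endoderm markers summed to 231 to 348 FPKM in Daxx-null against 38.2 to 94.8 FPKM in wild-type libraries, with 5 of 6 higher. The 6 trophoblast markers summed to 921 to 1021 FPKM against 374 to 458 FPKM in wild-type libraries, with 3 of 5 tested higher. The 6 neural markers summed to 278, 1688 and 255 FPKM in Daxx-null libraries against 521 to 655 FPKM in wild-type libraries, with 2 of 6 higher and 1 lower. The 6 fibroblast markers summed to 77.1, 384 and 74.1 FPKM against 70.2 to 132 FPKM in wild-type libraries, with 1 of 6 lower. No marker of these lists was at 0 in a 2i library. Their part in the lower ETn and MusD values was not tested.

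**Figure D2:**
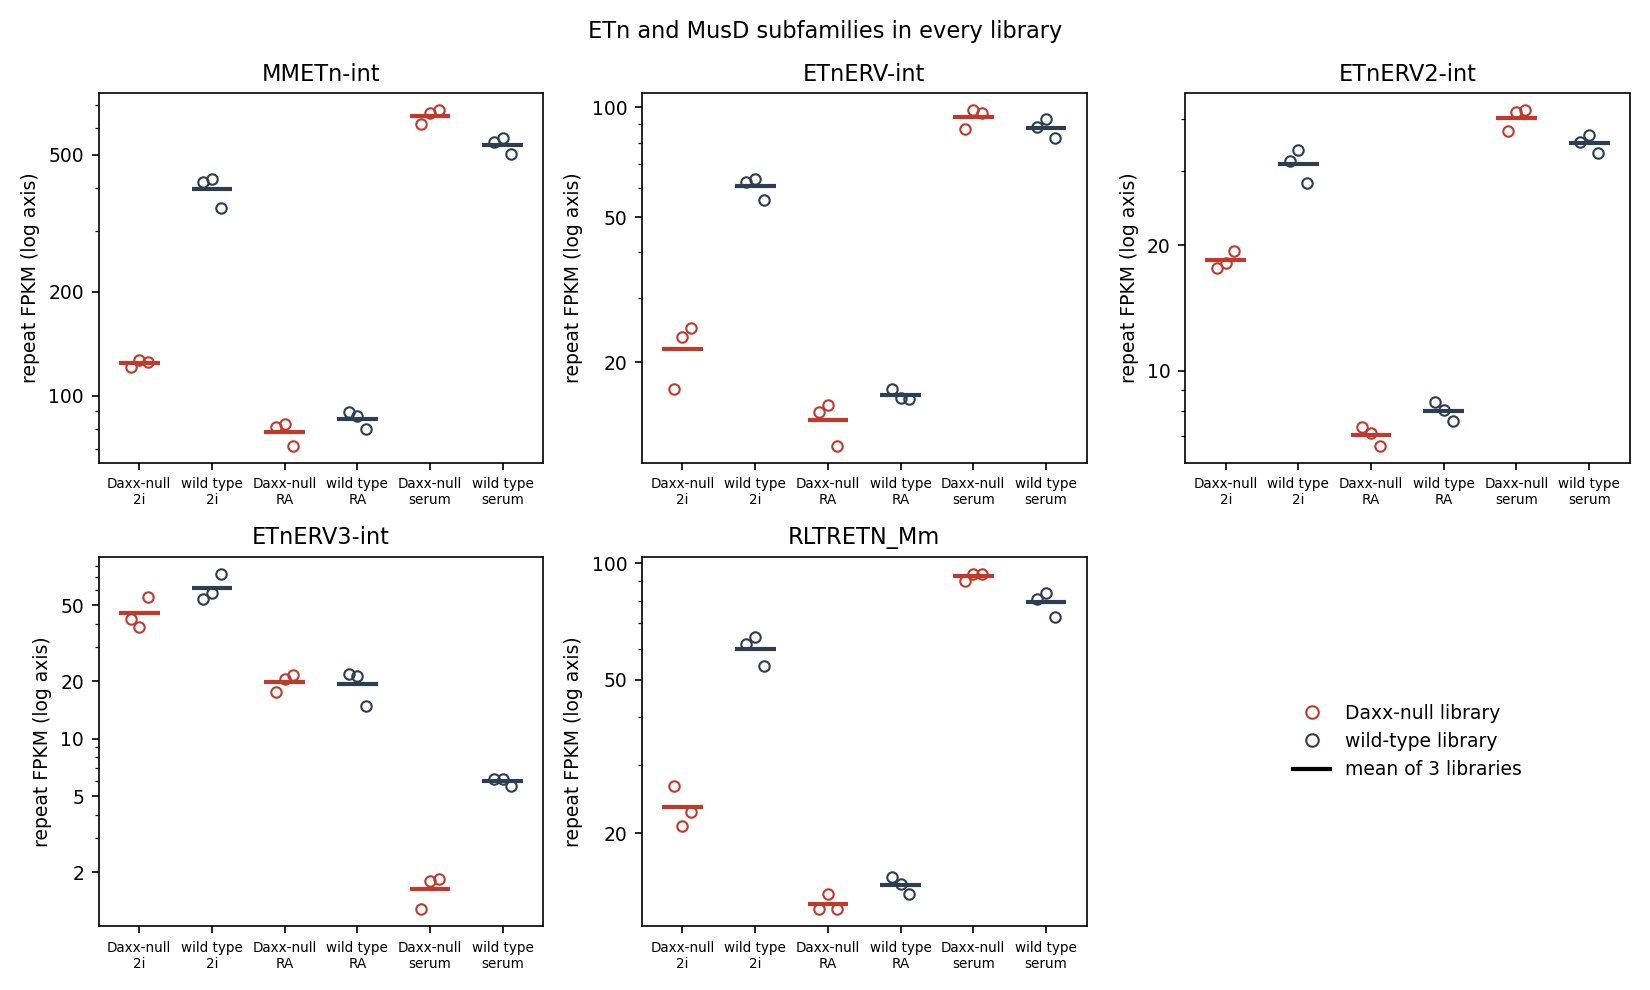
Repeat FPKM (log axis) of each ETn and MusD subfamily in every library, Daxx-null left of wild type in each culture; circles are libraries and lines are means of 3. MMETn-int, ETnERV-int, ETnERV2-int and RLTRETN_Mm share 1 pattern, with Daxx-null 2i far under wild-type 2i, whereas ETnERV3-int is lowest in Daxx-null serum libraries (1.28 to 1.84 FPKM).

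In serum, only ETnERV3-int was called, and it was lower in Daxx-null cells (1 of 5 members, beside 7.29% of all 864 subfamilies called lower and 3.59% called higher). It had 1.28, 1.80 and 1.84 FPKM in Daxx-null libraries against 6.13, 6.10 and 5.66 FPKM in wild-type libraries. The groups were widely separate, the wild-type mean being 3.64 times the Daxx-null mean. The log2 difference was -1.59 (SE 0.173, adjusted p = 5.63e-05), and 4 of the 864 subfamilies had a more negative one. Scaled to gene reads it was -1.55 (adjusted p = 0.000675).

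The other 4 were not called in serum. MMETn-int had 614, 663 and 674 FPKM in Daxx-null against 545, 558 and 502 FPKM in wild-type serum libraries. Every Daxx-null value lay above every wild-type value, but the log2 difference of 0.28 (SE 0.0900) had an adjusted p of 0.0592, and over the alternatives tried its adjusted p ran from 0.0132 to 0.54. ETnERV2-int had 37.6, 41.5 and 42.0 FPKM against 35.3, 36.7 and 33.2 FPKM in wild-type libraries (log2 difference 0.20, adjusted p = 0.123). RLTRETN_Mm had 90.3, 94.0 and 93.7 FPKM against 80.8, 84.0 and 72.8 FPKM (0.23, adjusted p = 0.134). Both were also separate by group. ETnERV-int overlapped, at 87.2, 98.2 and 96.5 FPKM against 88.5, 92.8 and 82.3 FPKM in wild-type libraries (0.10, adjusted p = 0.654). Without the 2 libraries of 2i that stood apart, which changes only the shared spread, MMETn-int, ETnERV2-int and RLTRETN_Mm were called higher (adjusted p = 0.0132, 0.0414 and 0.0332). At that setting calls over all subfamilies tested also rose, from 94 to 217, and were not split by direction. The Y-linked sums were 2.18 to 2.74 FPKM in Daxx-null against 158 to 259 FPKM in wild-type serum libraries. None of the 6 pluripotency markers was called in serum, where 9.29% of genes were called higher and 18.9% lower. The endoderm markers, 4 of 6 lower, summed to 10.3 to 12.9 FPKM in Daxx-null against 55.2 to 71.0 FPKM in wild-type libraries, with Afp, an endoderm marker, at 0 in 2 Daxx-null and all 3 wild-type libraries. The fibroblast markers, 4 of 6 lower, summed to 27.0 to 33.7 FPKM against 60.6 to 100.0 FPKM in wild-type libraries, with Col3a1 at 0 in 1 Daxx-null library and Dcn at 0 in 2 Daxx-null libraries and 1 wild-type library. The trophoblast markers, 2 of 5 tested lower, summed to 313 to 371 FPKM against 343 to 445 FPKM, with Elf5 at 0 in 1 Daxx-null library. The neural markers summed to 533 to 551 FPKM against 540 to 624 FPKM, and 1 of 6, the forebrain and eye regulator Pax6, was higher (log2 difference 1.49, adjusted p = 0.000519). The part of these markers in the ETnERV3-int difference was not tested.

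After retinoic acid, 0 of the 5 subfamilies was called between the genotypes, beside 0.116% of all 864 called higher and 1.04% called lower. By limma, the 1 tool run, ETnERV2-int alone had an unadjusted p under 0.05. MMETn-int had 81.0, 83.0 and 71.5 FPKM in Daxx-null against 89.5, 87.3 and 80.1 FPKM in wild-type libraries, overlapping groups with a log2 difference of -0.13 (SE 0.0900, adjusted p = 0.477). ETnERV3-int had 17.5, 20.5 and 21.6 FPKM against 21.8, 21.4 and 14.7 FPKM in wild-type libraries (0.06, adjusted p = 0.91). ETnERV2-int had 7.35, 7.12 and 6.62 FPKM against 8.45, 8.08 and 7.59 FPKM (-0.18, adjusted p = 0.198), without overlap. For ETnERV-int the difference was -0.22 (adjusted p = 0.366) and for RLTRETN_Mm -0.16 (adjusted p = 0.363), both also without overlap. Cell-type markers differed in this culture, where 0.222% of genes were called higher and 2.27% lower. Of the 6 pluripotency markers 4 were lower in Daxx-null cells, namely Pou5f1 (-2.85), Zfp42 (-1.74), Nanog (-1.48) and Tdgf1 (-1.42). Nanog and Tdgf1 were near the floor, at group means of 1.2 and 0.17 FPKM in Daxx-null against 4.2 and 1.3 FPKM in wild-type cells. Esrrb (-0.73) and Sox2 (0.48) were not called. Sox2 had 782, 881 and 512 FPKM in Daxx-null against 542, 499 and 483 FPKM in wild-type libraries. It held most of the pluripotency sums, which were 800, 900 and 530 FPKM in Daxx-null against 599, 558 and 617 FPKM in wild-type libraries. Of the 6 endoderm markers 1, Afp (-2.18), was lower, while no neural, fibroblast or trophoblast marker was called. Wild-type replicate 3 stood apart, with 73.9 FPKM of Pou5f1 beside 13.8 and 18.6 FPKM and an endoderm sum of 919 FPKM beside 552 and 515 FPKM in the other wild-type libraries. Without it the ETnERV3-int difference was -0.12. The part of these markers was not tested.

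**Figure D3:**
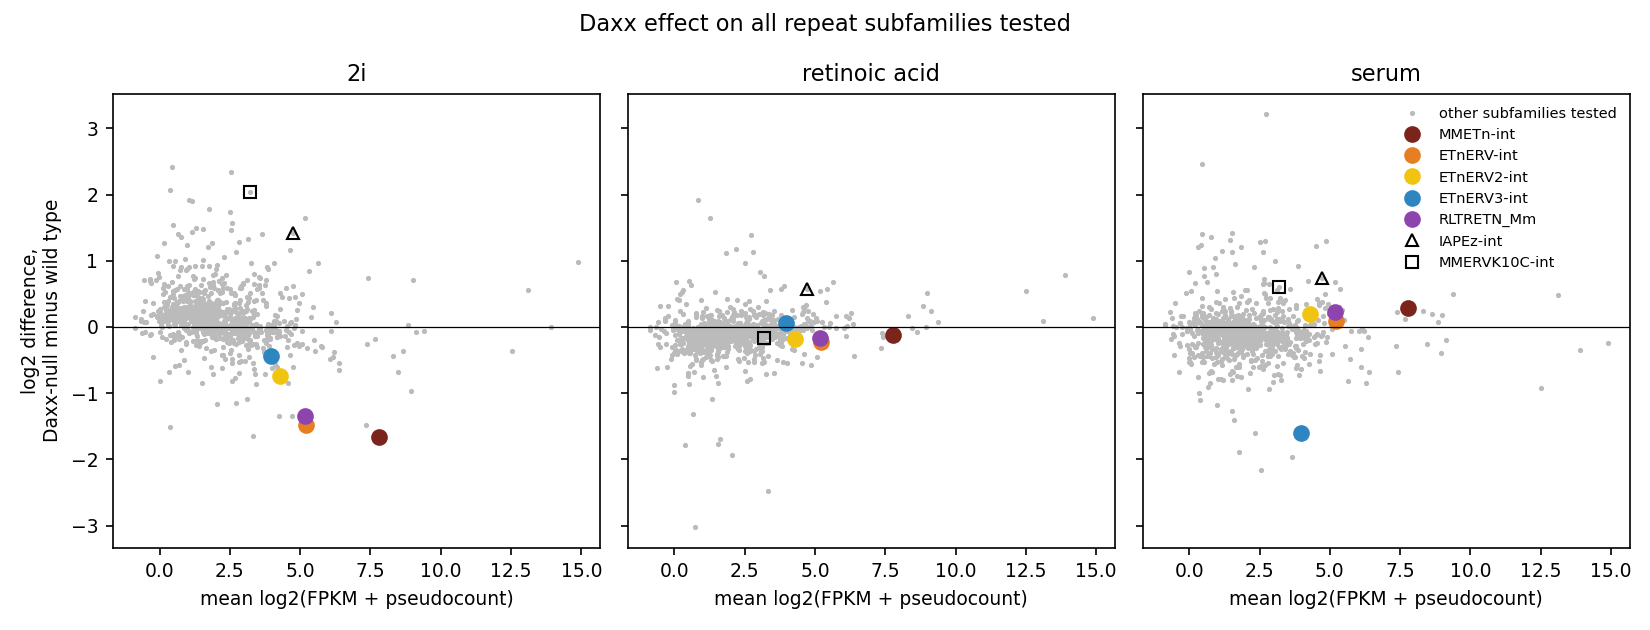
Log2 difference (Daxx-null minus wild type) of all 864 repeat subfamilies tested against their mean log2(FPKM + 0.5256), by culture, with the 5 ETn and MusD subfamilies and the comparators IAPEz-int and MMERVK10C-int marked. MMETn-int lies at -1.67 in 2i, under every other subfamily on this deposited scale (2 lie under it when scaled to gene reads), and at 0.28 in serum, while ETnERV3-int lies at -1.59 in serum.

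The Daxx effect differed between 2i and serum for all 5 members in a test of that difference itself, beside 17.6% of all subfamilies called higher and 4.28% lower; of the calls 80.4% were higher as deposited, 86.9% scaled to gene reads, 38.5% under quantile normalization and 46.7% under median-ratio scaling. The effect in 2i minus that in serum was -1.95 for MMETn-int (SE 0.127, adjusted p = 3.65e-07), -1.57 for RLTRETN_Mm (adjusted p = 1.85e-06), -1.57 for ETnERV-int (adjusted p = 5.43e-05) and -0.94 for ETnERV2-int (adjusted p = 5.63e-05). It was 1.15 for ETnERV3-int (SE 0.244, adjusted p = 0.00578), the opposite sign, its log2 difference being -0.44 in 2i and -1.59 in serum. All 5 remained called when scaled to gene reads, at -1.87 for MMETn-int (adjusted p = 0.000176) and 1.25 for ETnERV3-int (adjusted p = 0.014). Between retinoic acid and serum the effect differed for ETnERV3-int alone, by 1.65 (adjusted p = 0.00136), beside 0.463% of subfamilies called higher and 1.62% lower. Without the 2 libraries of 2i that stood apart, MMETn-int, ETnERV2-int and RLTRETN_Mm also had a lower effect after retinoic acid than in serum (adjusted p = 0.0293, 0.0293 and 0.0347). The share of all subfamilies called at that setting is not given here, so these calls cannot be set against it. The Y-linked RNA difference between Daxx-null 2i cells and the other Daxx-null cells touches the 2i comparison, and its part was not tested.

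Across cultures, both genotypes had their lowest MMETn-int after retinoic acid and their highest in serum. The order of its group means was Daxx-null serum (650 ± 31.8 FPKM), wild-type serum (535 ± 29.4), wild-type 2i (397 ± 41.6), Daxx-null 2i (124 ± 3.06), wild-type retinoic acid (85.6 ± 4.92) and Daxx-null retinoic acid (78.5 ± 6.11; SD, n = 3 each). Only the last pair overlapped among neighbours. ETnERV3-int ran in another order, with wild-type 2i (61.3 ± 10.2 FPKM) and Daxx-null 2i (45.2 ± 8.63) highest and overlapping. Daxx-null retinoic acid (19.9 ± 2.09) and wild-type retinoic acid (19.3 ± 3.97), also overlapping, followed, then wild-type serum (5.96 ± 0.263) and last Daxx-null serum (1.64 ± 0.313; SD, n = 3 each).

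After retinoic acid 4 of 5 members were lower than in serum in both genotypes. In wild-type cells 8.33% of all subfamilies were called lower and 50.7% higher, and the wild-type differences were -2.64 for MMETn-int (adjusted p = 2.9e-11), -2.40 for ETnERV-int, -2.06 for ETnERV2-int and -2.39 for RLTRETN_Mm. In Daxx-null cells, with 11.5% called lower and 49.7% higher, they were -3.04, -2.72, -2.44 and -2.77 in the same order. ETnERV3-int rose, by 1.59 in wild-type cells (adjusted p = 3.77e-06) and by 3.24 in Daxx-null cells. The median over all 864 subfamilies was 0.30 in wild-type cells as deposited and -0.18 scaled to gene reads, on which scale MMETn-int had -3.21 and ETnERV3-int 1.03 (adjusted p = 0.00204). Pluripotency markers were lower after retinoic acid, as given above, and neural markers summed to 869 to 1486 FPKM there against 533 to 624 FPKM in serum, so the culture comparison is also one of cell type.

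The step between serum and 2i depended on genotype. In Daxx-null cells 4 of 5 members were lower in 2i (32.2% of all subfamilies called lower, 17.5% higher), by -2.38 for MMETn-int (adjusted p = 5.77e-11), -2.11 for ETnERV-int, -1.11 for ETnERV2-int and -1.97 for RLTRETN_Mm. In wild-type cells 3 of 5 were lower (50.5% called lower, 9.84% higher), by -0.43 for MMETn-int (adjusted p = 0.000905), -0.53 for ETnERV-int and -0.39 for RLTRETN_Mm, about as much as the median of all subfamilies, which was -0.36. Scaled to gene reads these 3 were no longer called, at -0.06, -0.16 and -0.02 (adjusted p = 0.796, 0.533 and 0.928), and ETnERV2-int, at -0.17 as deposited (adjusted p = 0.0754), had 0.20 (adjusted p = 0.359). The Daxx-null decreases held on that scale, with -1.93 for MMETn-int (adjusted p = 2.96e-07). ETnERV3-int rose in 2i in both genotypes, to 27.6 times its serum mean in Daxx-null cells (log2 difference 4.40, adjusted p = 7.85e-11) and 10.3 times in wild-type cells (3.24, adjusted p = 4.85e-09). In wild-type cells 4 of the 864 subfamilies rose more.

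**Figure D4:**
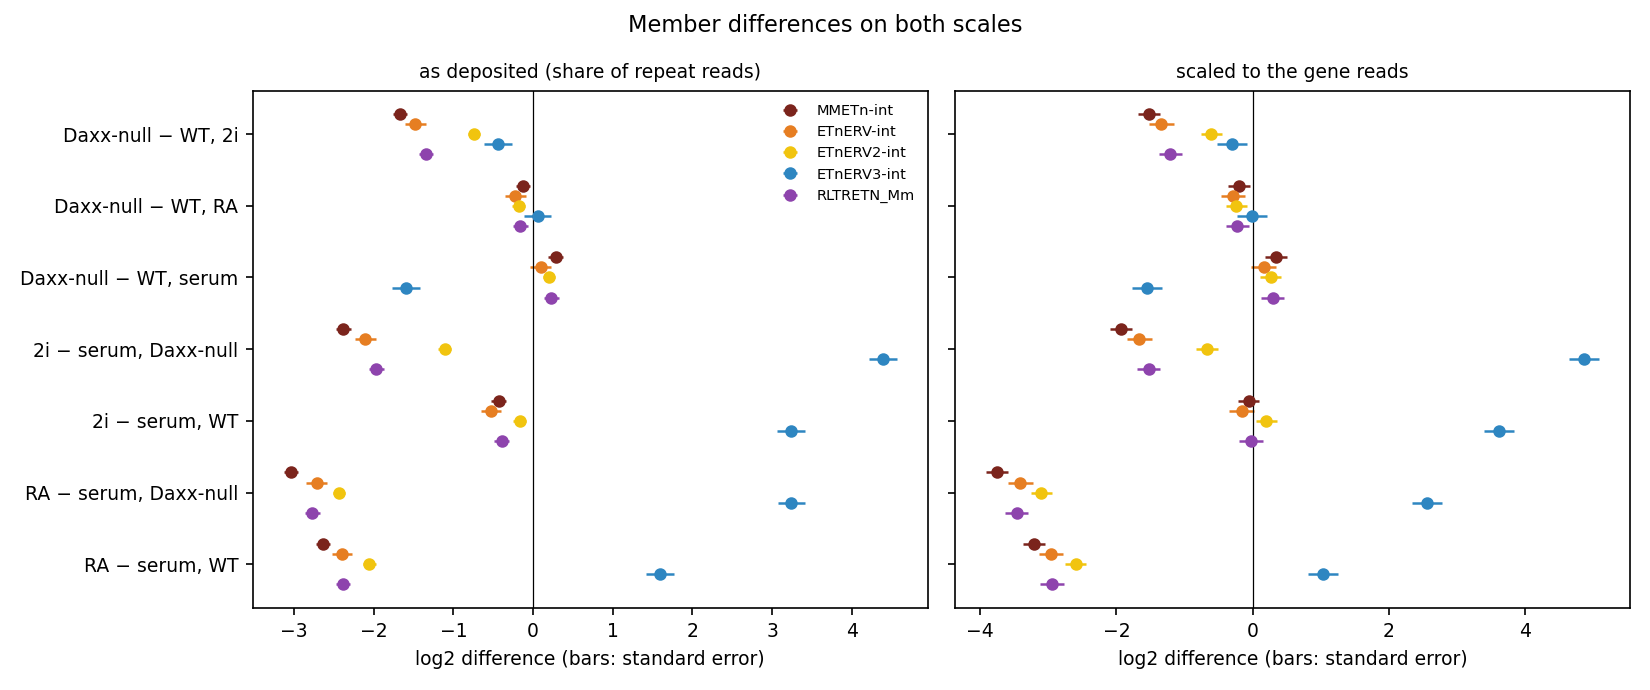
Log2 differences of the 5 subfamilies (points, bars are standard errors) for the genotype and culture comparisons, as deposited on the left and scaled to gene reads on the right. The Daxx-null decreases in 2i stay on both scales (MMETn-int -1.67 and -1.52), and those between wild-type 2i and serum move to near 0 on the right (MMETn-int -0.43 and -0.06).

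Ratios of rows within a library do not depend on the total to which a library is scaled, except through the 0.5256 added to each value first. That addition matters little for rows far above it and more for low rows. The log2 ratio of MMETn-int to IAPEz-int, the body of the intracisternal A particle elements (another active ERVK family), was 0.14 ± 0.0490 in Daxx-null against 3.23 ± 0.160 in wild-type 2i libraries (SD, n = 3 each), a difference of -3.09. The difference was -0.70 after retinoic acid and -0.45 in serum. Relative to MMERVK10C-int, an ERVK body whose repression in stem cells also needs Setdb1 and Trim28, the log2 ratio of MMETn-int was 2.16 ± 0.116 in Daxx-null against 5.87 ± 0.0328 in wild-type 2i libraries, a difference of -3.71. In serum that difference was -0.33, and after retinoic acid 0.03 with overlapping groups. All of these but the last separated the genotypes fully and had the smallest exact two-sided permutation p that 3 against 3 libraries allow, 0.1 (0.171 adjusted over 12 ratios and cultures), which cannot pass 0.05.

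Both rows of those ratios moved in 2i. IAPEz-int had 106, 118 and 116 FPKM in Daxx-null against 44.7, 49.9 and 32.7 FPKM in wild-type 2i libraries, and MMERVK10C-int 25.4, 26.8 and 30.4 FPKM against 6.45, 6.91 and 5.50 FPKM. Their log2 differences were 1.42 (adjusted p = 1.37e-05) and 2.04 (adjusted p = 1.3e-07), opposite in sign to MMETn-int. In serum they were also higher, by 0.73 (adjusted p = 0.00666) and 0.61 (adjusted p = 0.0086). Of the 142 other ERVK subfamilies tested, Daxx-null 2i cells had 50 higher and 6 lower, with a median log2 difference of 0.17, and 9 were higher and 17 lower in serum, with a median of -0.09. Of all 864 subfamilies 17.8% were called higher and 5.44% lower in 2i, and 3.59% and 7.29% in serum. These counts are on the deposited scale, where 76.6% of all 2i calls were higher. That share was 89.9% scaled to gene reads, 31.1% under quantile normalization and 45.4% under median-ratio scaling.

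Among the members, the LTR and ETnERV-int kept close to MMETn-int. The log2 ratio of RLTRETN_Mm to MMETn-int was -2.39 ± 0.206 in Daxx-null against -2.71 ± 0.0314 in wild-type 2i libraries (exact permutation p = 0.1), and differed by -0.03 after retinoic acid and -0.05 in serum with overlap. For ETnERV-int over MMETn-int the difference was 0.19 in 2i with overlap and -0.19 in serum without (exact permutation p = 0.1). The remaining 2 ratios were looked at after their values were seen and so were not tested. ETnERV2-int over MMETn-int differed by 0.92 in 2i. ETnERV3-int over MMETn-int differed by 1.23 in 2i and -1.88 in serum. Each of these was without overlap. ETnERV3-int was at only 1.28 to 1.84 FPKM in Daxx-null serum libraries, so the added 0.5256 makes its serum difference smaller in size.

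**Figure D5:**
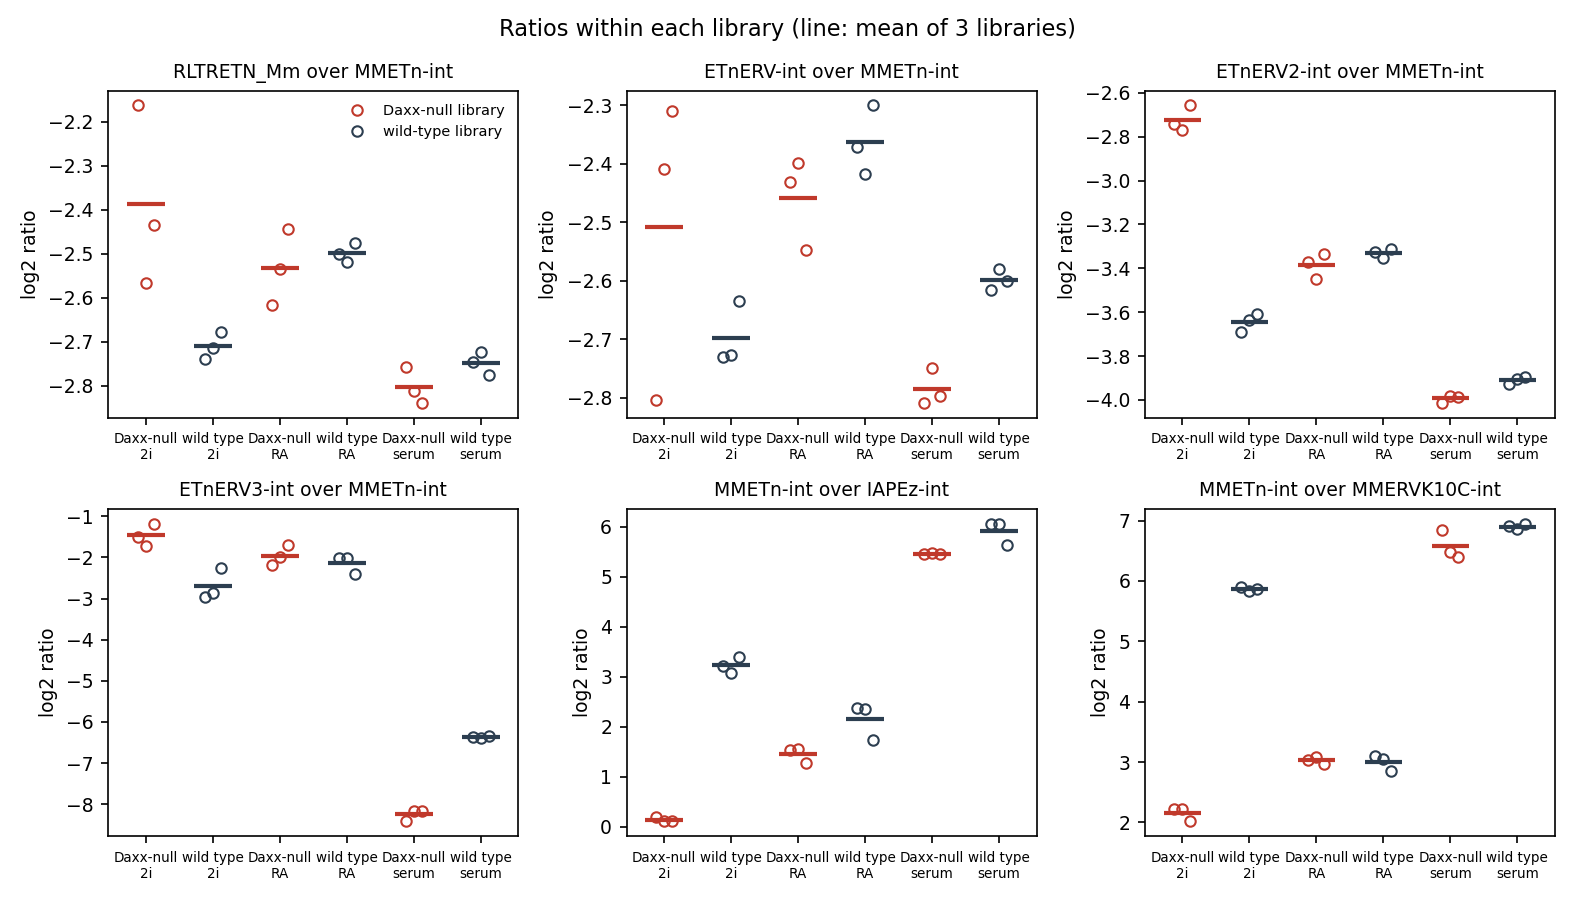
Log2 ratios of pairs of repeat rows within each library (0.5256 added to each value), Daxx-null left of wild type in each culture. Circles are libraries and lines are means of 3. MMETn-int over IAPEz-int is near 0.14 in Daxx-null 2i libraries and near 3.23 in wild-type 2i libraries.

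Over the 18 libraries MMETn-int, ETnERV-int, ETnERV2-int and RLTRETN_Mm correlated with each other at Pearson r of 0.953 to 0.996 on the log2 scale, and ETnERV3-int with each of them at -0.385 to -0.535. These are descriptions over libraries that fall into 6 groups and share their scaling. The other repeat subfamilies closest to the mean pattern of the 5 were MER34-int (r = 0.947), LTR88c (0.904), U1 (0.880), RLTR44E (0.871) and Lx2B (0.870), all over 18 libraries and at 0.42 to 19.1 FPKM in group means. That mean includes ETnERV3-int, which ran against the other 4, so the search was repeated on each after the patterns were seen. Closest to the other 4 were Lx2B (0.949), LTR88c (0.929), HAL1 (0.912), MER34-int (0.911) and LTR53 (0.905), with neither U1 nor RLTR44E among them. Closest to ETnERV3-int alone were RLTR21 (0.948), RLTR10D (0.932), MMVL30-int (0.907), IAP-d-int (0.887) and RLTR44A (0.864).

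The genes closest to the mean pattern were Nphs1os (r = 0.980), Usp45 (0.980), Dlgap3 (0.979), Prune2 (0.979), Fancd2 (0.978), Acacb (0.977), Fgd1 (0.976) and Nphs1 (0.976), over 18 libraries and among genes with a mean of at least 10 FPKM. That pattern mixes ETnERV3-int with the members that ran against it, and the gene search was not repeated on each. All of these genes but Nphs1 averaged more in wild-type 2i than in wild-type serum cells, such as Dlgap3 (419 against 207 FPKM). MMETn-int went the other way, at 397 against 535 FPKM. Nphs1, which encodes the slit-diaphragm protein nephrin of the kidney, averaged 6.16 FPKM in Daxx-null 2i against 82.2 FPKM in wild-type 2i cells, 0.083 against 0.231 FPKM after retinoic acid, and 74.5 against 85.1 FPKM in serum. Nphs1os is its opposite-strand transcript and had 7.53 against 80.8 FPKM in 2i. The counting is not stated to use strand, so reads of this overlapping pair cannot be told apart. Dlgap3, a postsynaptic scaffold gene, had 62.0 FPKM in Daxx-null 2i against 419 FPKM in wild-type 2i cells, and Fancd2, a DNA crosslink repair gene, 63.5 against 107 FPKM.

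Genes known for silencing retroelements were examined beside the elements, from a list of 34 that were all tested. In 2i, Daxx-null cells had 5 of them higher and 13 lower, Daxx included, where 31.5% of 18002 genes were called higher and 15.3% lower. Dnmt1, the maintenance DNA methyltransferase, had 354, 356 and 446 FPKM in Daxx-null against 538, 487 and 564 FPKM in wild-type 2i libraries (log2 difference -0.46, adjusted p = 0.000849). Uhrf1, its recruiter to replicated DNA, fell by 0.66. Dnmt3l, a cofactor of the de novo methyltransferases, had 140, 39.5 and 95.6 FPKM against 263, 355 and 131 FPKM in wild-type libraries (-1.50, adjusted p = 0.0221), overlapping through wild-type replicate 3, which stood apart. The heterochromatin protein genes Cbx1, Cbx3 and Cbx5 were lower (-0.72, -0.91 and -0.73), as were the remodeller genes Hells and Smarcad1 (-0.70 and -0.74) and Dnmt3b, a de novo methyltransferase gene (-0.56).

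Among those higher in 2i were Dnmt3a, the other de novo methyltransferase (0.80, adjusted p = 0.00016), Mphosph8 and Pphln1, which encode HUSH complex subunits (0.65 and 0.67), and H3f3a, an H3.3 gene (0.54). H3f3a and Cbx3 have processed pseudogenes, so reads shared with such copies make their values uncertain. Trim28 (-0.13, adjusted p = 0.471), Setdb1 (-0.09, adjusted p = 0.437) and Atrx (-0.01, adjusted p = 0.974) were not called in 2i. Trim28 had 3142, 2582 and 2941 FPKM in Daxx-null against 3613, 3760 and 2315 FPKM in wild-type libraries. Setdb1 had 290, 261 and 296 FPKM against 326, 327 and 253 FPKM. For both, wild-type replicate 3, which stood apart, was lowest, and the other wild-type libraries lay above every Daxx-null library. Atrx had 117, 188 and 185 FPKM against 175, 163 and 146 FPKM.

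In serum 9 silencing genes were higher and 2 lower, where 9.29% of genes were called higher and 18.9% lower. Trim28 had 6473, 5599 and 5511 FPKM in Daxx-null against 4090, 4337 and 4072 FPKM in wild-type serum libraries (log2 difference 0.49, adjusted p = 0.0199). Atf7ip, a partner that stabilises Setdb1, had 298, 310 and 307 FPKM against 168, 157 and 217 FPKM (0.77, adjusted p = 0.00106), and Tasor, a HUSH subunit gene, was higher by 0.52. Setdb1 (0.19, adjusted p = 0.125), Atrx (0.34, adjusted p = 0.13) and Dnmt1 (-0.03, adjusted p = 0.831) were not called. The 2 lower genes were Daxx and Chaf1b, a CAF-1 histone chaperone subunit gene named here after its value was seen (-0.38). Without wild-type serum replicate 3 the higher genes numbered 4, and without Daxx-null 2i replicate 1 or 2 the lower genes numbered 4.

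After retinoic acid 3 silencing genes were lower and 1 higher, where 2.27% of genes were called lower and 0.222% higher. Dnmt3l had 1.74, 3.19 and 1.75 FPKM in Daxx-null against 14.4, 16.3 and 62.2 FPKM in wild-type libraries (-3.24, adjusted p = 0.00138), the 62.2 being that of wild-type replicate 3, which stood apart in Pou5f1 and endoderm markers, and Zfp809, a zinc-finger repressor gene of retroviral primer binding sites, fell by 0.62. Daxx was the third, and Uhrf1, named after its value was seen, was higher by 0.40 (adjusted p = 0.0362), a call lost when Daxx-null retinoic acid replicate 1 or 2, any wild-type retinoic acid library, Daxx-null serum replicate 2 or wild-type serum replicate 1 or 2 was left out. Trim28 (0.26, adjusted p = 0.524), Setdb1 (0.04, adjusted p = 0.957), Atrx (-0.09, adjusted p = 0.929) and Dnmt1 (0.02, adjusted p = 0.995) were not called. The median over the 34 genes was -0.11 in 2i, 0.05 after retinoic acid and 0.14 in serum, beside 0.20, -0.05 and -0.12 over all genes tested.

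Of 10 genes known to restrict retroelement RNA or its movement, all tested and those below named after their values were seen, Daxx-null 2i cells had 3 higher and 1 lower, where 31.5% of genes were called higher and 15.3% lower, so these counts are near the background. Trex1, a cytosolic DNA exonuclease gene, was higher by 0.66 there, Mov10, an RNA helicase gene, by 0.58 and Mettl3, the RNA N6-adenosine methyltransferase gene, by 0.67, while Nxf1, an mRNA export factor gene, fell by 0.32. In serum, where 9.29% of genes were called higher and 18.9% lower, Trex1 (0.41), Mettl3 (0.78) and Ythdc1, a nuclear reader of that methyl mark (0.42), were higher and Zc3hav1, an antiviral zinc-finger gene, was lower (-0.89). After retinoic acid, where 0.222% of genes were called higher and 2.27% lower, Apobec3, the cytidine deaminase that restricts MusD, and Zc3hav1 were lower (-0.58 and -1.16), and 0 of 10 was higher.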

How the data were processed

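RNA-seq libraries from 18 cultures (3 per genotype and culture) were used. Per the labels' protocols, total RNA was enriched with oligo(dT) beads and depleted of rRNA. The authors' deposited repeat and gene tables hold FPKM values. The submitters' processing notes name Bowtie2 2.2.6, HOMER 4.8, limma and the mm9 build, with no role for each, and do not say how reads with several positions were handled. Per the file headers, repeat rows carry copy number, mean length and divergence (a fraction in the deposited files, printed as a percent), by which the deposited FPKM convert to whole units (tolerance 0.1) for 100% of low repeat values and at least 99.96% of low gene values.

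Repeat values were tested as log2(FPKM + 0.5256), the 5th percentile of values above 0, for 864 of 906 subfamilies above 0 in at least 9 libraries, with limma 3.58.1 in R 4.3.3: 6 group means, trended shared spread, Benjamini-Hochberg adjustment, threshold 0.05. Genes were tested as log2(FPKM + 0.5) for the 18002 genes that reached an FPKM of 1 in 3 or more libraries. A fold change on these scales understates the change of low rows. Ratios were taken after the same 0.5256 was added to each repeat value, and used exact two-sided permutation tests. Scripts were tested on simulated data. Replicate numbers did not pair the libraries.

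Named were every member, the 5 repeats and 8 genes of highest Pearson r to the mean pattern of the members, silencing genes called with a log2 difference of at least 0.5, and Daxx, Atrx, Trim28, Setdb1 and Dnmt1. Members and lists were chosen with earlier results of these data known. Alternatives were the pseudocount, low-value filter, scaling, fits on the compared groups alone, variance trend, replicate block and leaving out libraries. P-values measure the spread between these replicates, which may be technical. No element sequence was used here, since the genome at hand was of another build.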

Additional observations from a re-analysis of the deposited data

Results flagged for a closer look

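The Daxx effect (Daxx-null minus wild type, log2) differed between cultures for every ETn and MusD subfamily by a test of that difference. The effect in 2i minus the effect in serum was -1.95 for MMETn-int, -1.57 for ETnERV-int, -0.94 for ETnERV2-int, 1.15 for ETnERV3-int and -1.57 for RLTRETN_Mm. The effect in retinoic acid minus that in serum was 1.65 for ETnERV3-int. With 3 libraries a group, single libraries far from their group were not tested.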

How the results depend on the processing

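Across 29 alternatives, the Daxx-null decreases of MMETn-int, ETnERV-int, ETnERV2-int and RLTRETN_Mm in 2i and of ETnERV3-int in serum kept their direction and call; MMETn-int in 2i ran from -2.12 to -1.52. No member value rested on fewer than 1335 units, so the spread between 3 libraries limits precision. Counts of calls moved in other comparisons, and the cause was not tested.

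In serum, 0 members were called higher, but 1 was with no filter, quantile normalization, median-ratio scaling, scaling to repeat reads outside the members (chosen after seeing the data), no variance trend or the replicate block, and 3 without both 2i libraries that stood apart (0 to 1 with single libraries left out, 1 without Daxx-null 2i replicate 2 or wild-type 2i replicate 3). Between wild-type 2i and serum, 3 were lower, against 0 scaled to gene reads, 1 under quantile normalization and 0 under median-ratio scaling. For the effect in retinoic acid minus serum, 0 were lower, against 1 under quantile normalization, 3 with the compared groups alone and 3 without both 2i libraries. Calls over all subfamilies at these settings are not given here for that difference. The replicate numbers did not pair the libraries (correlations of same-numbered deviations -0.154 to 0.109), and with the replicate block 1 member was called higher in serum.

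Reversed in sign, with none called, were ETnERV3-int after retinoic acid (-0.014 scaled to gene reads, -0.0038 without Daxx-null replicate 3, -0.12 without wild-type replicate 3, with up to 0.15 when other single libraries were left out), ETnERV2-int between wild-type 2i and serum (0.20 scaled to gene reads, 0.25 under median-ratio scaling), ETnERV2-int in serum (-0.058, quantile), RLTRETN_Mm between wild-type 2i and serum (0.023, median-ratio), and after retinoic acid the ratios of RLTRETN_Mm to MMETn-int (-0.077 to 0.0090 with single libraries left out) and MMETn-int to MMERVK10C-int (-0.044 to 0.085).

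Silencing genes in serum numbered 9 higher and 2 lower, against 5 higher (quantile), 14 higher and 1 lower (median-ratio), 5 lower (compared groups alone) and 4 lower (without both 2i libraries), with 4 to 12 higher and 2 to 4 lower when single libraries were left out. In 2i 13 were lower, against 8 with the compared groups alone (10 to 14 with single libraries left out, and 4 to 6 higher). After retinoic acid the 1 higher became 0 under median-ratio scaling, with the compared groups alone and with no variance trend (0 to 1 with single libraries left out), and the 3 lower became 1 with the compared groups alone (2 to 3). The share of all genes called at these settings is not given here, so these moves cannot be set against a general shift of calls.

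Over all repeats, calls in serum numbered 94, against 50 scaled to gene reads and 217 without both 2i libraries (47 to 141 with single libraries left out). In 2i they numbered 201, against 308 scaled to gene reads and 38 with the compared groups alone, and 76.6% of them were higher, against 89.9% scaled to gene reads, 31.1% under quantile normalization and 45.4% under median-ratio scaling. The share called higher in serum was 33%, against 42%, 55.3% and 63.9%. The same share, as deposited, scaled to gene reads, under quantile normalization and under median-ratio scaling, was 85.9%, 25.4%, 46.9% and 47.4% for wild-type retinoic acid minus serum, 81.2%, 19.1%, 50.3% and 46.4% for Daxx-null, 16.3%, 47.1%, 40.3% and 51.8% for wild-type 2i minus serum, and 35.2%, 83.2%, 34.2% and 51% for Daxx-null. After retinoic acid 10 were called between genotypes, against 67 without both 2i libraries (2 to 20 with single libraries left out).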
